A study of Mus musculus with 6 samples.

Results

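Epithelial-mesenchymal transition (EMT) factors and the epithelial regulators that oppose them were examined in parental and axitinib-resistant 4T1 cells. The 10 genes were taken by name from the 53465 genes of the deposited table. They were the EMT-inducing factors Zeb1, Zeb2, Snai1, Snai2, Twist1 and Twist2, and the epithelial factors Esrp1, Esrp2, Grhl2 and Ovol1. 4T1 is a mouse mammary carcinoma line of Balb/c origin, and 3 RNA libraries of parental (P) cells were compared with 3 of axitinib-resistant (AxR) cells. Axitinib is a tyrosine kinase inhibitor that acts mainly on VEGF receptors. AxR cells were grown out of a metastatic lesion (lung or lymph node, by the study's methods) that arose after removal of the primary tumor in Balb/c mice dosed with axitinib at 100 mg/kg/day, and were then kept for over 2 months in medium with axitinib at 0.5 μM. By the labels only AxR samples were treated, while the description of culture medium mentions 0.5 μM axitinib for every sample. Growth in mice, metastasis, dosing and long culture with drug come together in AxR cells, so their parts in any difference cannot be told apart. The sources give neither whether AxR cells are 1 clone nor whether replicates came from separate cultures, so p-values measure only the spread between these samples.

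Background on these genes helps in reading the values. ZEB, SNAI and TWIST proteins are DNA-binding factors that recognise E-boxes (the letters CANNTG) and, when active in carcinoma cells, repress E-cadherin and other genes of the epithelial state. ESRP1 and ESRP2 are RNA-binding proteins that set the epithelial splicing of transcripts such as Fgfr2 and Cd44, GRHL2 activates junction genes and represses Zeb1, and OVOL1 represses Zeb1 and other EMT genes. Carcinoma cells can hold both programs at once, and 4T1 is commonly described as such a line.

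The estimated counts summed to between 15495260 and 17294525 per library. Levels are CPM, that is counts scaled to a common library size after upper quartile normalization, and 3 counts, used as the floor, were worth between 0.171 and 0.196 CPM. Lines were compared by the quasi-likelihood test of edgeR, whose p-values were adjusted after Benjamini and Hochberg over all 13550 genes that could be tested, and differences are given as the log2 fold change of AxR over P with its standard error (SE). By that test 63.5% of all tested genes differed between the lines at an adjusted p under 0.05, with 32.8% higher and 30.8% lower in AxR cells, and this is the background for each count of calls. The libraries of the lines did not overlap for 68.3% of tested genes, 35.1% with AxR above P and 33.2% with AxR below P. Mammary carcinoma markers were present in both lines, where 6 of 7 were tested and called higher in AxR cells and Krt5 was at 0 in every library. The summed level of these markers was from 1880 to 2100 CPM in P and from 3000 to 3180 CPM in AxR libraries. Cdh1, Epcam, Krt8 and Krt18 of this list are also among the epithelial effector genes below, of which 7 rose and 11 fell. Other cell types were looked for by their markers. The leukocyte list summed to at most 0.365 CPM in any library, with Tyrobp, Fcer1g and Cd3e at 0 throughout. The endothelial list summed to at most 0.635 CPM and the lung epithelial list to at most 0.426 CPM. Of 8 fibroblast markers, Col3a1 and Lum had no count, and Pdgfra alone was tested, at 22.6 CPM in P and 10.1 CPM in AxR cells. The untested fibroblast markers had few counts and went in both directions. Col1a2 had 0, 0 and 2 counts in P replicates 1 to 3 and 3, 5 and 3 in AxR replicates. Col1a1 had 14, 10 and 3 in P replicates and 4, 5 and 3 in AxR replicates.

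Of the 10 genes, 8 passed the low-count filter, and Zeb1 passed it only through its AxR libraries, so that its call is given as a description. In AxR cells 2 genes were higher (Zeb1 and Esrp1) and 5 were lower (Zeb2, Snai1, Twist1, Esrp2 and Ovol1) at an adjusted p under 0.05. With a minimum log2 difference of 1 in addition, Zeb1 remained higher and Zeb2 remained lower, where 7.99% and 4.72% of tested genes were higher and lower. Grhl2 did not pass the threshold, and Snai2 and Twist2 had too few counts to be tested. The EMT-inducing genes with counts above the floor in both lines, Zeb2, Snai1 and Twist1, were all lower in AxR cells. The EMT-inducing gene called higher, Zeb1, had 1 count in each P library. Among the epithelial genes Esrp1 was higher, while Esrp2 and Ovol1 were lower. The paralogs Esrp1 and Esrp2 thus moved in opposite directions, and so, as a description, did Zeb1 and Zeb2. For each of the 7 genes called, all AxR libraries lay on one side of all P libraries. The same held for 68.3% of all tested genes. The 7 genes were chosen by their calls, so this is no separate support. For each of them the two-sided exact permutation test gave p = 0.1, its lower limit with 3 libraries in each line. Bulk RNA cannot tell a change in the number of expressing cells from a change in RNA per cell.

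**Figure D1:**
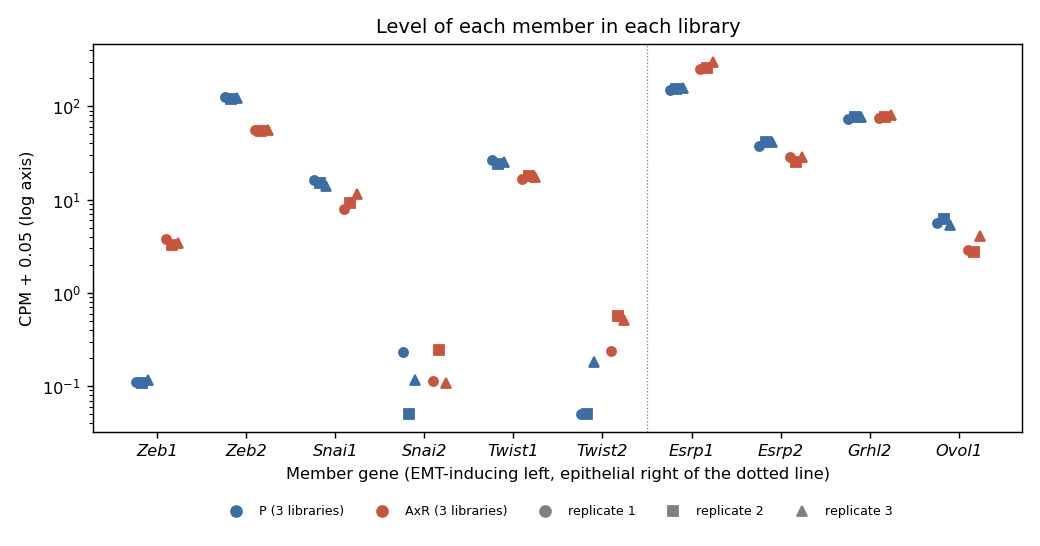
Level of the 10 genes in each of the 6 libraries, as CPM + 0.05 on a log axis, with P in blue, AxR in red and the replicate number as the marker shape. Zeb1 lies near 0 in P and between 3.19 and 3.68 CPM in AxR, Zeb2 is the most abundant EMT-inducing transcript by CPM in both lines, and Grhl2 overlaps between the lines.

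Zeb1 (ENSMUSG00000024238.14, chromosome 18 of GRCm38 from 5591860 to 5775467, plus strand), a zinc finger repressor of E-cadherin, had 1 count in each P library. AxR replicates 1 to 3 had 58, 50 and 60 counts, or 3.68, 3.19 and 3.41 CPM. Summed over a line this was 3 counts in P and 168 in AxR cells, a ratio of 56.1 with an exact 95% counting interval from 18.9 to 275. Chromosome 18 as a whole was centred at 0.50 on the log2 scale (318 genes). The genes that overlap Zeb1 in the annotation, Gm10125, Gm22709 and Gm16147, had at most 1 count in any library.

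Zeb2 (ENSMUSG00000026872.17, chromosome 2 from 44983632 to 45117395, minus strand), the paralog of Zeb1, had 127, 119 and 122 CPM in P replicates 1 to 3. It had 55.9, 54.5 and 55.9 CPM in AxR replicates 1 to 3. All AxR libraries were thus at less than the lowest P value, and the mean fell from 122 ± 4.06 to 55.4 ± 0.852 CPM (SD, n = 3 each). The log2 fold change was -1.14 (SE 0.053, edgeR adjusted p = 1.01e-10), against a median of -0.09. for chromosome 2 (1066 genes) The antisense gene Zeb2os, which overlaps Zeb2, had from 28 to 33.4 estimated counts in P and 16 in each AxR library. Per kilobase of exon, the Zeb2 level was between 960 and 1070 times that of Zeb1 in P libraries, with 1 Zeb1 count in each, and between 7.82 and 8.79 times in AxR libraries. Zeb2 was therefore still the more abundant ZEB transcript in every AxR library.

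Snai1 (ENSMUSG00000042821.7, chromosome 2 from 167538195 to 167542814, plus strand), a zinc finger repressor induced early in EMT, had 15.99, 15.1 and 13.9 CPM in P replicates 1 to 3. In AxR replicates 1 to 3 it had 7.81, 9.12 and 11.5 CPM. The lines did not overlap, with AxR lower, but the AxR libraries were spread more widely. The mean fell from 14.98 ± 1.05 to 9.47 ± 1.87 CPM (SD, n = 3 each), which is -0.66 on the log2 scale (SE 0.126, edgeR adjusted p = 0.000325). With 1 library left out at a time it ranged from -0.82, without AxR replicate 3, to -0.53, without AxR replicate 1.

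Snai2 (ENSMUSG00000022676.6, chromosome 16 from 14705852 to 14709385, plus strand), which encodes the related factor Slug, had 3, 0 and 1 counts in P replicates 1 to 3 and 1, 3 and 1 counts in AxR replicates 1 to 3. The ratio of the summed counts was 1.25 with an exact 95% interval from 0.270 to 6.31, so that a difference was not detectable at this depth. At most 0.191 CPM was measured in any library.

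Twist1 (ENSMUSG00000035799.6, chromosome 12 from 33957671 to 33959829, plus strand), a basic helix-loop-helix factor, had 26.8, 24.1 and 25.2 CPM in P replicates 1 to 3. It had 16.6, 17.9 and 17.3 CPM in AxR replicates 1 to 3, each below the lowest P library. The mean fell from 25.4 ± 1.37 to 17.3 ± 0.673 CPM (SD, n = 3 each), which is -0.56 on the log2 scale (SE 0.077, edgeR adjusted p = 1.48e-05). Chromosome 12 as a whole was centred at 0.001 on the log2 scale (512 genes).

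Twist2 (ENSMUSG00000007805.4, chromosome 1 from 91801461 to 91848028, plus strand), the paralog of Twist1, had 0, 0 and 2 rounded counts in P replicates 1 to 3. It had 3, 8 and 8 in AxR replicates 1 to 3, and the lines did not overlap. The ratio of the summed counts was 9.52 (exact 95% interval from 2.30 to 84.3). Twist2 did not pass the low-count filter and was called higher only without it, so that this is given as a description. Gm29100, an antisense gene that overlaps Twist2, went from at most 4 estimated counts in P to between 7.69 and 13.9 in AxR libraries, and 3 of the 6 Twist2 values were not whole numbers, as arises when RSEM divides reads between genes. The part of such reads in the Twist2 values was not tested.

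**Figure D2:**
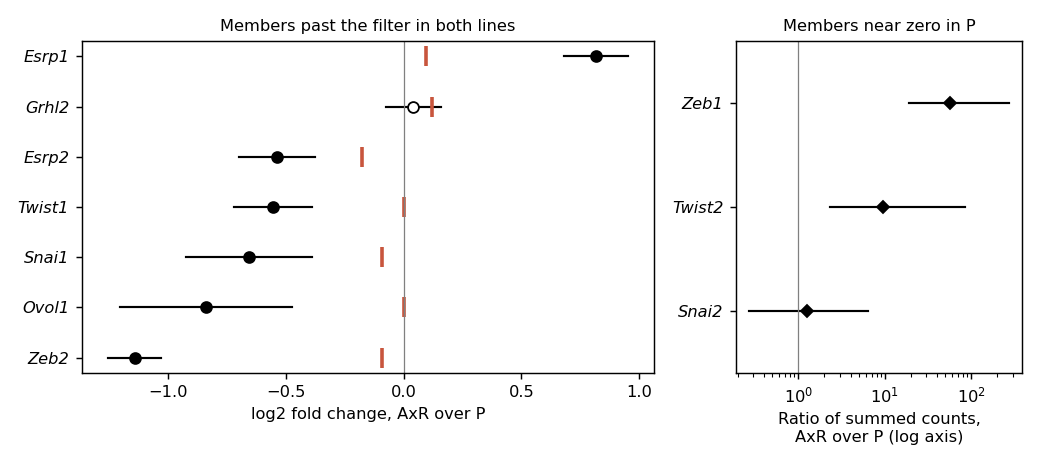
Left, log2 fold change of AxR over P with its 95% interval for the 7 genes with counts above the floor in both lines, filled where the adjusted p was under 0.05, with the median of the gene's chromosome as a red tick. Right, ratio of summed counts with its exact 95% counting interval on a log axis for the 3 genes near 0 in P, of which the intervals of Zeb1 and Twist2 lie above 1.

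Among the epithelial factors, Esrp1 (ENSMUSG00000040728.15, chromosome 4 from 11331933 to 11386783, minus strand) had 150, 155 and 156 CPM in P replicates 1 to 3. It had 252, 259 and 302 CPM in AxR replicates 1 to 3, all above the P libraries. The mean rose from 154 ± 2.99 to 271 ± 27.1 CPM (SD, n = 3 each), which is 0.82 on the log2 scale (SE 0.063, edgeR adjusted p = 3.98e-08). Its chromosome had a median of 0.09 over 864 genes. With 1 library left out at a time it ranged from 0.74, without AxR replicate 3, to 0.87.

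Esrp2 (ENSMUSG00000084128.10, chromosome 8 from 106130319 to 106136974, minus strand) had 37.1, 41.5 and 41.1 CPM in P replicates 1 to 3. It had 28.5, 25.2 and 28.6 CPM in AxR replicates 1 to 3, all below the P libraries. The mean fell from 39.9 ± 2.39 to 27.4 ± 1.90 CPM (SD, n = 3 each), which is -0.54 on the log2 scale (SE 0.076, edgeR adjusted p = 1.62e-05), against a median of -0.18. for chromosome 8 (749 genes) Esrp2 overlaps Nfatc3 on the opposite strand, and its estimated count was not whole in any of the 6 libraries. The strand setting of the counting is not given, and the part of reads shared with Nfatc3 was not tested. Per kilobase of exon, Esrp1 was between 2.57 and 2.78 times Esrp2 in P libraries and between 6.08 and 7.27 times in AxR libraries, and these ranges do not overlap.

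Grhl2 (ENSMUSG00000022286.16, chromosome 15 from 37233036 to 37363569, plus strand) had 72.8, 76.6 and 76.5 CPM in P replicates 1 to 3 and 75.2, 76.5 and 80.6 CPM in AxR replicates 1 to 3. The libraries of the lines overlapped. The log2 fold change was 0.04 with a 95% interval from -0.08 to 0.16 (edgeR adjusted p = 0.536), so that a change of Grhl2 beyond this interval was not seen.

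Ovol1 (ENSMUSG00000024922.1, chromosome 19 from 5549136 to 5560646, minus strand) had 5.59, 6.18 and 5.35 CPM in P replicates 1 to 3. It had 2.86, 2.68 and 3.98 CPM in AxR replicates 1 to 3, all below the P libraries. The mean fell from 5.71 ± 0.427 to 3.17 ± 0.707 CPM (SD, n = 3 each), which is -0.84 on the log2 scale (SE 0.172, edgeR adjusted p = 0.000549). With 1 library left out at a time it ranged from -1.04, without AxR replicate 3, to -0.73, without AxR replicate 2. AxR replicate 3 was the highest AxR library for Snai1, Esrp1, Grhl2 and Ovol1, and for Esrp2 by only 28.56 against 28.51 CPM in AxR replicate 1. It also held the most counts of the 6 libraries, for which CPM is scaled.

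Levels of different genes were compared per kilobase of annotated exon. In P cells the order was Esrp1 at 24.4 ± 0.475, Twist1 at 15.6 ± 0.841, then Snai1 at 9.24 ± 0.649, Esrp2 at 9.19 ± 0.551 and Grhl2 at 8.74 ± 0.254 CPM per kilobase (SD, n = 3 each). Snai1, Esrp2 and Grhl2 did not differ beyond their spread. Zeb2 followed at 6.14 ± 0.204 and Ovol1 at 1.64 ± 0.123 CPM per kilobase, and Snai2, Twist2 and Zeb1 were each at or below 0.041. In AxR cells Esrp1 at 43.0 ± 4.30 and Twist1 at 10.6 ± 0.413 CPM per kilobase still led. Next came Grhl2 at 8.99 ± 0.326, followed by Esrp2 at 6.32 ± 0.437 and Snai1 at 5.85 ± 1.15, which did not differ beyond their spread, and by Zeb2 at 2.78 ± 0.0427 CPM per kilobase. Zeb1 reached 0.334 ± 0.0241 CPM per kilobase in AxR cells, above Twist2 and Snai2. The order below Esrp1 depended on the length used. With the longest transcript in place of all exons, Zeb2 was at 13.4 and Snai1 at 9.24 CPM per kilobase in P cells. In AxR cells Grhl2, at 15.7 CPM per kilobase, then stood above Twist1, at 10.6.

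Summed over the 6 EMT-inducing genes, the level was between 30.1 and 32.8 CPM per kilobase in P libraries and between 18.3 and 21.02 in AxR libraries. Twist1 made up 50.2% ± 1.02 of this sum in P and 53.8% ± 2.88 in AxR cells (SD, n = 3 each). Zeb2 made up 19.8% ± 0.376 and 14.1% ± 1.08, and Zeb1 made up 0.0193% ± 0.00154 and 1.70% ± 0.228. Although Zeb1 had the largest ratio, it was therefore a small part of the EMT-inducing transcripts of AxR cells. Summed over the 4 epithelial genes, the level was between 42.4 and 44.8 CPM per kilobase in P and between 56.1 and 64.9 in AxR libraries, and Esrp1 made up 55.5% ± 0.667 of it in P and 72.5% ± 1.24 in AxR cells (SD, n = 3 each). With the longest transcript as the length, a choice made after seeing the data, Zeb2 made up 35% of the EMT-inducing sum in P and 26.1% in AxR cells, Twist1 40.7% and 45.5%, and Zeb1 0.0276% and 2.55%. The epithelial sum was then between 66.0 and 69.3 CPM per kilobase in P and between 89.4 and 104 in AxR libraries, with Esrp1 at 58.3% and 74.1% of it. These sums are descriptions and were not tested.

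**Figure D3:**
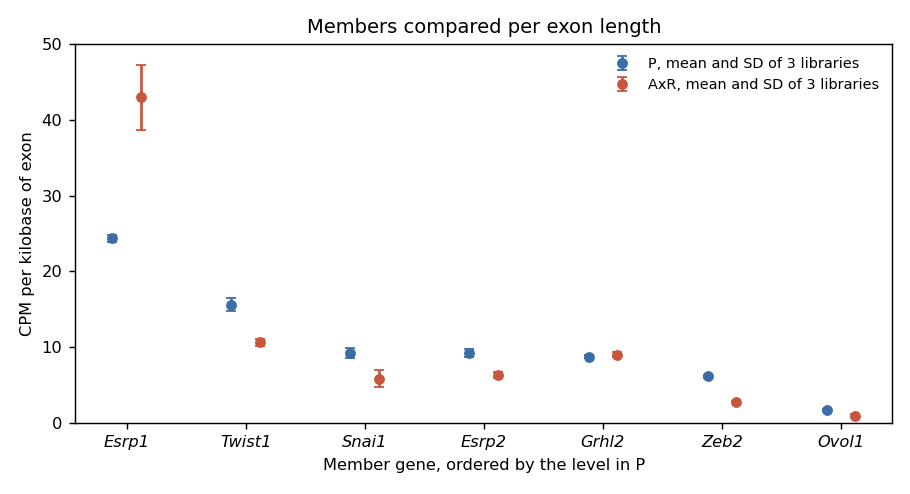
Mean and SD over 3 libraries of CPM per kilobase of annotated exon for the 7 genes with counts above the floor in both lines, ordered by the level in P. Esrp1 is highest in both lines and reaches 43.0 in AxR, while Zeb2 drops from 6.14 to 2.78.

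Genes that the EMT factors are known to repress were followed as a list of 22 epithelial effector genes, all of which were tested. In AxR cells 7 of them were higher and 11 lower. Their median was -0.19 on the log2 scale, against 0.006 over all genes tested and a background of 32.8% higher and 30.8% lower. Cdh1, which encodes E-cadherin, rose from 556 ± 1.54 to 845 ± 7.02 CPM (SD, n = 3 each), or by 0.60 on the log2 scale (edgeR adjusted p = 1.08e-08). Epcam, an epithelial adhesion molecule, rose by 0.78 on the log2 scale, and Prss8 and Crb3, a membrane protease and an apical polarity protein, rose by 0.97 and 0.87. The keratins Krt8 and Krt18 were also higher, with log2 fold changes of 0.68 and 0.36.

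The losses in the same list were much larger. Ap1m2, the epithelial subunit of the AP-1 sorting adaptor, was at 7.30 ± 0.316 CPM in P cells (SD, n = 3) and had no count in any AxR library, which makes it at least 38.2-fold lower at a floor of 3 counts per library. Mal2, a transcytosis protein, fell from 59.9 ± 6.19 to 0.156 ± 0.160 CPM (SD, n = 3 each), and the ratio of its summed counts was 0.00274 with an exact 95% interval from 0.00118 to 0.00540. Ap1m2 and Mal2 passed the low-count filter only through their P libraries, so that their calls are given as descriptions. Rab25, an epithelial recycling GTPase, and the tight junction claudin Cldn7 fell by 3.96 and 3.43 on the log2 scale, to 0.836 ± 0.193 and 0.751 ± 0.108 CPM (SD, n = 3 each). Krt19, Cldn3 and desmoplakin (Dsp) had log2 fold changes of -1.31, -0.94 and -0.89. Rab25, Cldn7, Krt19, Cldn3, Dsp, Krt8 and Krt18 were named here after their values were seen. The epithelial list therefore held both rises of under 1 and falls of over 3 on the log2 scale. Cdh1 rose while Zeb1 was higher and the more abundant Zeb2, Snai1 and Twist1 were lower, and a link between them was not tested.

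**Figure D4:**
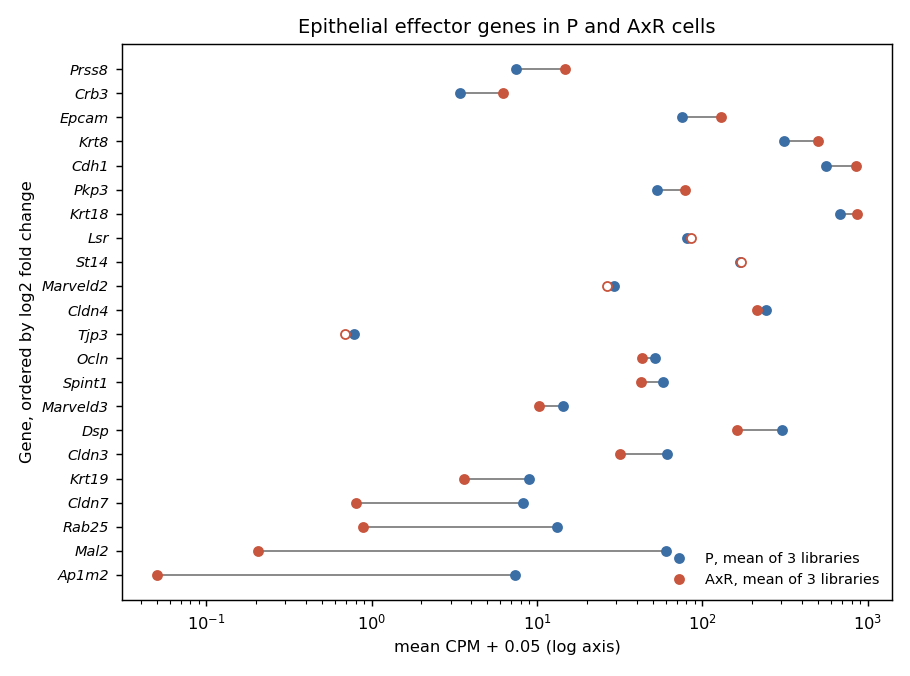
Mean CPM + 0.05 over 3 libraries on a log axis for the 22 epithelial effector genes in P (blue) and AxR (red, open where the adjusted p was not under 0.05), ordered by log2 fold change. Ap1m2, Mal2, Rab25 and Cldn7 fall furthest, while Cdh1, Epcam, Prss8 and Crb3 move up.

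Because ZEB and SNAI factors bind the E-box CACCTG, read as CAGGTG on the other strand, these letters were searched in RefSeq promoter windows of GRCm38.p6, from 250 bases before to 50 bases after a transcript start. CACCTG is 1 form of the general E-box CANNTG. The letters were present in 20.2% of all 32851 windows. Windows were found for 4 of the 10 genes. Snai1 held CACCTG once, starting 126 bases before the transcript start (position -126), while Zeb2 (4 windows), Twist1 and Twist2 held none. A window was found for 4 of 7 epithelial effector genes that rose, 8 of 11 that fell and 3 of 4 not called. Of those with a window, the most upstream one held CACCTG in 4 of 4 that rose and 6 of 8 that fell. It was also in 3 of 3 that did not pass the threshold. The list was chosen as genes that EMT factors repress, so these counts against 20.2% of all windows are no test. AACCGGTT, the GRHL letters, was present in 0.146% of all windows and CCGTTA, the OVO letters, in 2.76%. Neither was in any window of Snai1, Zeb2, Twist1 or Twist2. Zeb1, named above as repressed by GRHL2 and OVOL1, had no window and was not searched. At such rates, absence from so few windows says little about either factor. The window of Snai1 (chr2:167537945-167538244 on the plus strand) and those of the effectors Ap1m2 (chr9:21312284-21312583 on the minus strand) and Rab25 (chr3:88548230-88548529 on the minus strand), which fell, and of Epcam (chr17:87635729-87636028 on the plus strand) and Crb3 (chr17:57061951-57062250 on the plus strand), which rose, are printed 5′ to 3′ to show that the letters occur on both sides of the comparison. Capitals mark CACCTG or CAGGTG.
Snai1: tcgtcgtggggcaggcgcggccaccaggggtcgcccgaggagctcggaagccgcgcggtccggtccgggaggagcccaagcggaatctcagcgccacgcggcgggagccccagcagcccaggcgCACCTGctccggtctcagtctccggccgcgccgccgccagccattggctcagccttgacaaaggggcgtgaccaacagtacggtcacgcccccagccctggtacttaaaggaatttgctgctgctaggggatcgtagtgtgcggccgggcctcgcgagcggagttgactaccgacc
Ap1m2: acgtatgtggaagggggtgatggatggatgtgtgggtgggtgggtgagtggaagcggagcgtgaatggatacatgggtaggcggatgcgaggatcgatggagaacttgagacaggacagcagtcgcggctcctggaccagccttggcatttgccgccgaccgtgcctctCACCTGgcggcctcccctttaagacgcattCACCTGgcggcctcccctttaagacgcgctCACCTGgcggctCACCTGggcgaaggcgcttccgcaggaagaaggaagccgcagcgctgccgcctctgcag
Rab25: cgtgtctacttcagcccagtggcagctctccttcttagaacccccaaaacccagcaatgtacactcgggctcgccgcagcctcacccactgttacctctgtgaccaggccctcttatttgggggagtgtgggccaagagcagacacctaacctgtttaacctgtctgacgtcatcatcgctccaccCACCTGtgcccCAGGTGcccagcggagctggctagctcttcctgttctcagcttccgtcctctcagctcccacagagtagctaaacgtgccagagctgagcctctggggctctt
Epcam: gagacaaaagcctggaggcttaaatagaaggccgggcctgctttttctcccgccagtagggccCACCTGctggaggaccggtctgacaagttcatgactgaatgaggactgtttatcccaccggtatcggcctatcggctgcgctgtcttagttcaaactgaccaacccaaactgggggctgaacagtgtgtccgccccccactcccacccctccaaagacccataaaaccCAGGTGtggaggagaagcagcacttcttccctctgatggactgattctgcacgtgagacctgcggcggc
Crb3: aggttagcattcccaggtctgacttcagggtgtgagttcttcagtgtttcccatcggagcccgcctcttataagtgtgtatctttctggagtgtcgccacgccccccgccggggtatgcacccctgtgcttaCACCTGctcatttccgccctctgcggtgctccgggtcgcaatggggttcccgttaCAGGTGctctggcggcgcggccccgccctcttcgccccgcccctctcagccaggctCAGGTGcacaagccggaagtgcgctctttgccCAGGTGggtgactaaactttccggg
Ap1m2 held the letters 4 times, at positions -81, -51, -21 and -9 from the transcript start, Rab25 held them at -64 and -53, Epcam at -187 and -19, and Crb3 at -118, -63, -7 and 26. The most upstream window of Cldn7 held none, and its other window held 2. A match of letters is a description and does not show that a factor was bound.

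Of 18 mesenchymal effector genes only 6 passed the low-count filter, with 3 called higher and 2 called lower in AxR cells. Over all tested genes 32.8% were higher and 30.8% lower. The median of the tested genes of the list was 0.306 on the log2 scale, against 0.006 over all genes tested. Vimentin (Vim), the intermediate filament of mesenchymal cells, fell from 1304 ± 25.1 to 718 ± 20.0 CPM (SD, n = 3 each), which is -0.86 on the log2 scale (edgeR adjusted p = 3.73e-10). Fibronectin (Fn1) fell from 3620 ± 63.8 to 2751 ± 77.5 CPM (SD, n = 3 each), which is -0.40 on the log2 scale. S100a4 rose from 47.5 ± 3.39 to 97.0 ± 20.5 CPM (SD, n = 3 each), which is 1.03 on the log2 scale (edgeR adjusted p = 0.00241). Cdh2, which encodes N-cadherin, had 1 count in 1 AxR library and none in the others, and Col3a1 and Thy1 had none in any. Without a low-count filter 5 genes of the list were higher.

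Both ESRP paralogs act on splicing, which counts per gene do not show, but the total level of their known target transcripts was measured. All 6 listed targets passed the test, 2 higher and 4 lower in AxR cells, where 63.5% of all tested genes were called. Fgfr2 rose from 85.5 ± 1.69 to 425 ± 24.2 CPM (SD, n = 3 each), which is 2.31 on the log2 scale (edgeR adjusted p = 7.60e-14). Enah, an actin regulator, and Cd44, a hyaluronan receptor, had log2 fold changes of -1.13 and -0.59. Of 8 other splicing regulators 3 were higher and 1 lower, led by Rbfox2 at 0.29 and Celf1 at -0.23 on the log2 scale.

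Of 15 other EMT-associated transcription factors, 12 were tested, with 5 higher and 4 lower. Over all tested genes 32.8% were higher and 30.8% lower. Fosl1, an AP-1 subunit, fell from 223 ± 16.5 to 71.0 ± 9.47 CPM (SD, n = 3 each), which is -1.65 on the log2 scale (edgeR adjusted p = 1.64e-08), and Sox4 fell by 0.84. Foxc1 and Tcf4 rose by 0.70 and 0.68, and Tcf4 lies on chromosome 18, which had a median of 0.50. Of 15 other epithelial transcription factors, 10 were tested, with 3 higher and 4 lower. Trp63, the p63 factor of basal epithelium, had 3 summed counts in P and 55 in AxR cells, a ratio of 18.4 with an exact 95% interval from 5.97 to 91.8. Trp63 passed the low-count filter only through its AxR libraries, so that its call is given as a description. Trps1 rose by 0.35, and Klf5 and Gata3, regulators of epithelial and luminal fate, fell by 0.77 and 0.36. Ovol2, the paralog of Ovol1, had 1.55 ± 0.157 CPM in P and 1.85 ± 0.404 CPM in AxR cells (SD, n = 3 each) and did not pass (edgeR adjusted p = 0.412).

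All 7 dimer partners and inhibitors of Twist passed the test, 5 higher and 2 lower. Of all tested genes 63.5% were called, 32.8% higher and 30.8% lower, which is the background for each list of this paragraph. The libraries of the lines did not overlap for 4 of the 5 higher genes. Tcf4, also of this list, lies on chromosome 18, which had a median of 0.50. Id2 and Id3, which bind the E protein partners of Twist and keep them from DNA, rose by 1.66 and 1.14 on the log2 scale, while Id4 and the E protein gene Tcf12 fell by 1.46 and 0.36. Id3 rose from 15.1 ± 0.613 to 33.2 ± 1.43 CPM (SD, n = 3 each), where Twist1 had fallen. Of 11 corepressor partners 4 were higher and 3 lower, among them Kdm1a, Ajuba, Ctbp1 and Rcor1 with log2 fold changes of 0.30, 0.26, -0.51 and -0.45. Of 10 genes for the turnover of EMT proteins 3 were higher and 2 lower, led by Csnk1a1 and Btrc at 0.43 and 0.36 and Fbxo45 at -0.53. The other lower gene, Gsk3b at -0.16, missed the threshold without P replicate 1 (adjusted p = 0.0684) or P replicate 3 (adjusted p = 0.0677), both from edgeR, which left 1 lower. Over all its alternatives the adjusted p of Gsk3b was between 0.0028 and 0.0684. Csnk1a1 lies on chromosome 18, with a median of 0.50, and Fbxo45 and Gsk3b lie on chromosome 16, with a median of -0.32. The part of the chromosome shifts in these values was not tested.

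TGF-β is a main inducer of EMT, and of 14 genes of its pathway 6 were higher and 3 lower. Over all tested genes 32.8% were higher and 30.8% lower. The list median was 0.08 on the log2 scale. The ligand gene Tgfb1 fell from 30.1 ± 1.18 to 16.6 ± 0.637 CPM (SD, n = 3 each), which is -0.86 on the log2 scale (edgeR adjusted p = 1.02e-07), and Tgfb3 rose by 0.68. Smad4 rose by 0.57 and Smad3 fell by 0.39. Smad4, and Smad2 and Smad7, named after their values were seen, lie on chromosome 18 and had log2 fold changes of 0.57, 0.27 and 0.43, around that chromosome's median of 0.50. The part of the chromosome's shift in these values was not tested.

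**Figure D5:**
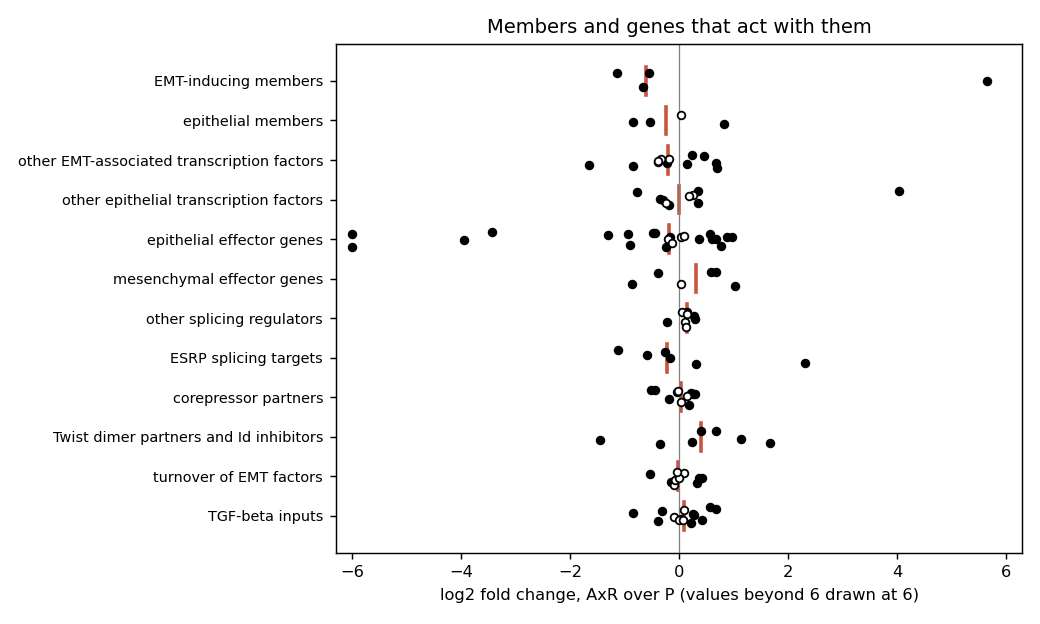
log2 fold change of AxR over P for each tested gene of the member groups and of 10 lists of genes that act with them, filled where the adjusted p was under 0.05, with the list median in red and values beyond 6 drawn at 6. Each list with more than a few genes spreads on both sides of 0, and the longest tail to the left belongs to the epithelial effector genes.

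The tested genes with profiles closest to each of the 7 called genes were found by the root mean square distance of log2 CPM over the 6 libraries, each gene centred on its mean. For Zeb1 they were Tns1, Slc4a4 and Col6a1, at distances between 0.129 and 0.147. For Zeb2 they were S1pr2, Sh3bgrl2 and Hmgn1, for Snai1 Elmo1, Rccd1 and Shb, and for Twist1 Dennd1b, Micall2 and Nck2. For Esrp1 they were Cactin, Izumo4 and Fyn, all on chromosome 10, for Esrp2 Pi4ka, Orc2 and Gskip, and for Ovol1 Jun and Spire2. With 2 lines these distances mostly reflect the size of the difference between the lines.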

How the data were processed

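RNA was sequenced from 3 P and 3 AxR samples of 4T1 cells with stranded, poly(A)-selected libraries. According to the labels and the study's methods, reads were aligned by STAR 2.6.0a (GRCm38, annotation GENCODE M16). Gene-level estimated counts, computed by RSEM 1.3.1, were deposited by the authors without filtering or normalization. RSEM's strand setting is not given in the sources used here. Between 10.3% and 10.7% of values in a library were not whole, and all were rounded. Low genes were removed by filterByExpr, upper quartile factors were applied, and lines were compared in edgeR 4.0.16 by its quasi-likelihood test (robust, line as the only term). Floors and counting intervals cover counting error only. Symbols, positions and exon lengths came from GENCODE M21, with 53360 of 53465 identifiers found. Per list, the 2 highest and 2 lowest called genes with at least 1 CPM in the higher line were named, beside all 10 members, Cdh1, Epcam, Vim, Cdh2, Fn1, Fgfr2, Cd44 and Ovol2. A few genes that this rule or the lists would name are not reported here. Exact permutation tests used log2(CPM + 0.5). The members and lists were chosen with earlier results of these data known. Replicates of a line differed by more than sampling noise (the chi-square statistic was 4.99 to 19.2 times its degrees of freedom), and each counts as 1 sample. The analysis was repeated with DESeq2 1.42.0, with voom in limma 3.58.1, with TMM factors, with unadjusted library sizes, without a low-count filter, with at least 10 counts in every library, with the replicate number as a block, with each library left out, with a minimum log2 difference of 1, and with longest transcript length. The edgeR script was tested on simulated data.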

Additional observations from a re-analysis of the deposited data

How the results depend on the processing

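The calls of the 8 tested genes were the same under each alternative that could test them, other than the minimum log2 difference of 1, and Zeb1 could not be tested with at least 10 counts in every library, which left 1 member higher in place of 2. With each library left out in turn, 2 members were higher and 5 lower in every case, calls over the whole table ranged from 4124 to 4499 higher and from 3782 to 4112 lower, and those over the context lists from 36 to 39 higher and from 33 to 37 lower. A minimum log2 difference of 1 in either direction left 1 member higher (Zeb1) and 1 lower (Zeb2), 1083 genes of the table higher and 640 lower (4441 and 4167 without it), and 5 context genes higher and 8 lower (39 and 36 without it). This follows from the criterion itself, which left 5 epithelial effector genes lower in place of 11 and 0 higher in place of 7. Without a low-count filter 5 other splicing regulators were higher in place of 3, 5 mesenchymal genes in place of 3, and 3 members in place of 2, Twist2 being added. That call of Twist2 is given as a description. With at least 10 counts in every library 1 gene of the Twist partners and inhibitors was lower in place of 2. With the longest transcript as the length, 6 of 10 members kept their rank per kilobase in P and 6 in AxR cells. With the replicate number as a block, 2 members were higher and 5 lower, and 4304 genes were higher and 4023 lower. Same-numbered samples did not deviate together (correlations of deviations of -0.0213, -0.0061 and -0.0217), so the numbers were not taken to pair the samples. Depth limits Snai2 and Twist2 most, since their counts lay near the floor.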
